A study of Mus musculus with 3 samples.

Results

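The circRNAs described here came from 8 genes whose proteins act on chromatin: 4 SET-domain methyltransferases (Nsd1, Ehmt1, Whsc1 and Setd3), the SWI/SNF subunits Smarcc1 and Arid1a, and the Snf2-family ATPases Ep400 and Btaf1. Every circRNA with 1 of these genes as its host was taken, whatever its read count. This gave 11 circRNAs of the 563 in the table, from 8 of 459 hosts. They were sequenced from the RNA of plasma exosomes, small vesicles that cells release into blood, to compare normal mice, diabetic model mice and model mice treated with electroacupuncture (EA).

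All mice were male C57BL/6 mice with 10 in each group. The normal group ate a standard diet. Both other groups were fed a high-fat diet for 6 weeks and then injected with streptozotocin (STZ), a toxin of islet β cells, at 100 mg/kg daily over 7 days, with a further injection for mice whose glucose stayed below the limit. The model group received nothing further, and the model + EA group had needles at the Zusanli and Pishu acupoints with 2 Hz current, 15 minutes a session and 12 sessions spread over 4 weeks. There was 1 library for each of the 3 groups, and how many mice gave plasma to it is not stated in the sources used here. Differences therefore have no replicate check, no p-value is given, and every interval below covers counting error only.

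The libraries are called A1, B1 and C1, because the sources disagree on their groups. By the titles of the samples A1 is normal, B1 is model and C1 is model + EA. The sheets of the study's comparison tables use A1 for model, B1 for model + EA and C1 for normal. In the study's list of its most changed circRNAs, the folds of the upregulated ones match B1 against A1. Those of the downregulated ones match C1 against A1, so that list does not settle the naming. The reads of each library are the same under both, but the direction of every comparison between groups depends on which naming holds. The libraries held 2913 to 4372 junction reads, and the depth was spread differently: C1 had reads for 320 circRNAs with a median of 7 reads each, A1 for 157 with a median of 25, and B1 for 140 with a median of 33.5. C1 thus stood apart, with more circRNAs at fewer reads each. For a library with 0 reads the floor used is 3 reads, a share of 0.0727% in A1, 0.0686% in B1 and 0.103% in C1. The exact two-sided limits for 0 reads are somewhat wider, at 0.0894%, 0.0843% and 0.127%. Of 45 marker genes of exosomes, blood cells, hepatocytes and islets, the 5 exosome markers among them, 3 hosted a circRNA. These were the hemoglobin genes Hba-a1, Hbb-bs and Hbb-bt, with 6 junction reads in A1, 50 in B1 and 4 in C1. Of the 50 in B1, 43 came from the junction of Hbb-bs, which had 0 in A1 and in C1. Hba-a1 and Hbb-bt had similar counts in each library. Whether red cell RNA had a part in the results was not tested. Junction reads of circRNAs do not measure the linear mRNA of a marker, so the markers check the source of the RNA only weakly, and in bulk RNA fewer vesicles of a source cannot be told apart from less RNA in each.

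A circRNA forms when the spliceosome joins the 3′ end of an exon to the 5′ end of an exon that does not lie after it in the gene, and a read across this back-splice junction counts the circle and not the linear mRNA. SET domains transfer methyl groups to lysines of histones and, in some members of the family, to other proteins. SWI/SNF complexes slide or evict nucleosomes with the energy of ATP, and the motor of these and of related machines is an ATPase of the Snf2 family. Genes with long introns around early internal exons often yield circRNAs in many tissues, and circles lack free ends, which makes them resistant to exonucleases in blood.

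The junctions identify the circles, and the 6 that lie wholly in coding sequence are shown because each is the sequence that a counted read had to cross. The last 20 bases of the closing exon are in lower case and the first 20 bases of the opening exon are in capitals, in the sense of the mRNA, from GENCODE M21 transcripts on GRCm38, the assembly of mm10.
Ehmt1 exons 5 to 10, chr2:24847944-24863908, minus strand: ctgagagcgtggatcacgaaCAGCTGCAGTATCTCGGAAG
Smarcc1 exons 4 to 6, chr9:110147045-110153842, plus strand: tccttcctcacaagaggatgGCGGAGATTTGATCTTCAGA
Arid1a exons 3 to 4, chr4:133719537-133720999, minus strand: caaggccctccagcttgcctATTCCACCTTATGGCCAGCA
Arid1a exons 2 to 4, chr4:133719537-133723051, minus strand: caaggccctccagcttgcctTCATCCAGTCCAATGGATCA
Ep400 exons 8 to 10, chr5:110727529-110729963, minus strand: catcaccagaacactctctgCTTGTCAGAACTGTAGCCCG
Btaf1 exons 5 to 6, chr19:36956371-36958509, plus strand: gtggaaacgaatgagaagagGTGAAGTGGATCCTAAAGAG
The lower-case run is identical in both Arid1a circles, which close on the same exon and differ in the exon that opens them. The junctions of Nsd1, Whsc1, Setd3 and the other Ep400 circles each have 1 side in a 5′ UTR and are not printed.

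All 11 circles were of the exonic type, and both ends of each lay at annotated exon edges. For 11 of 11 there was a transcript whose summed exons equalled the length predicted by the authors. Transcripts of that length were preferred where several fitted, so this match is not an independent check. No other annotated gene overlapped any of them. Of the 11, 4 carried a circBase identifier (Whsc1, the Arid1a circle of exons 2 to 4 and the Ep400 circles that start at exon 2), 4 carried an identifier from another collection, and 3 carried none (Setd3, Smarcc1 and the Arid1a circle of exons 3 to 4).

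The 8 hosts together gave 143 junction reads in A1, 57 in B1 and 68 in C1. As a share of all junction reads this was 3.47% in A1 (95% interval 2.93 to 4.07, exact Clopper-Pearson, as for every share below), 1.30% in B1 (0.989 to 1.69) and 2.33% in C1 (1.82 to 2.95). The intervals of A1 and C1 overlapped slightly, and that of B1 lay below both. Without its most abundant circle the share was 2.38% in A1, 0.526% in B1 and 1.44% in C1, so A1 stayed highest and B1 lowest. A1 detected 5 of the circles from 5 hosts, B1 3 from 3 hosts and C1 5 from 4 hosts.

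Most of the circles were seen in a single library: 9 in 1 library, 2 in 2 libraries (Btaf1 and the Ep400 circle of exon 2) and 0 in all 3. Among all 563 circRNAs the counts were 520, 32 and 11, so 7.64% were in more than 1 library against 18.2% of the 11. Detection in A1 alone, the pattern of 5 of the circles, was the pattern of 135 circRNAs in the table (24.0%). Detection in C1 alone was that of 280 (49.7%), B1 alone that of 105 (18.7%) and B1 with C1 that of 21 (3.73%). Detection in a single library was thus the rule in this table and is not particular to these hosts.

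**Figure D1:**
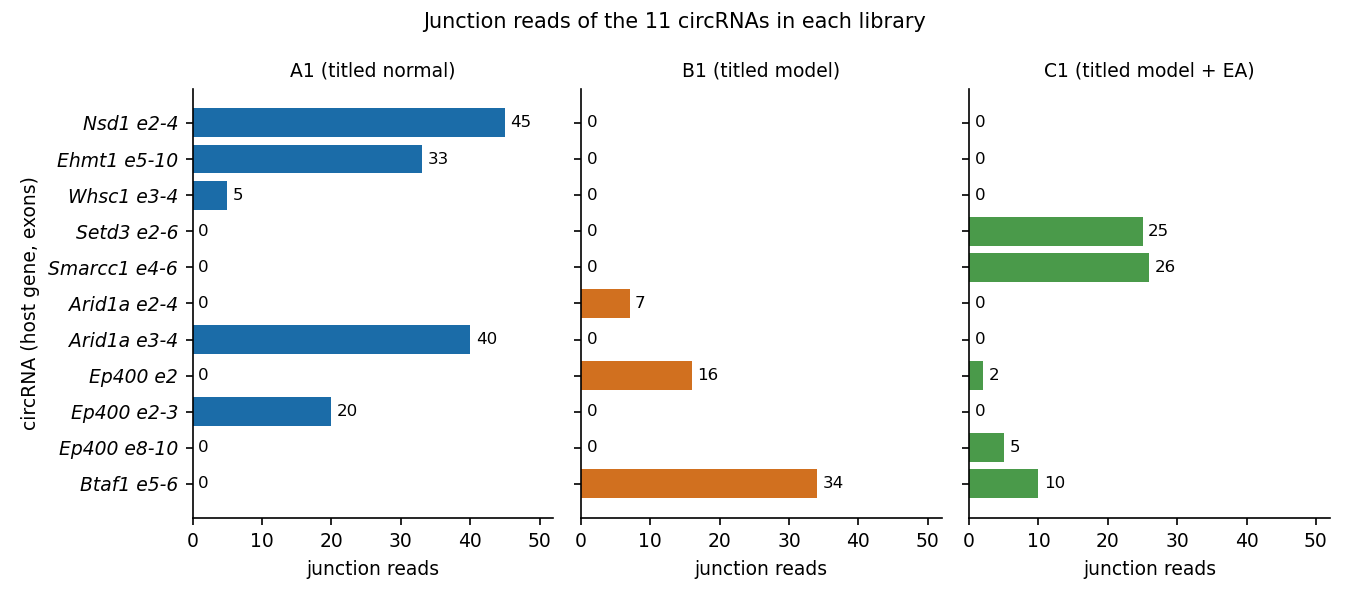
Junction reads (x axis) of each of the 11 circRNAs (y axis: host gene and exons) in libraries A1, B1 and C1, 1 bar per circRNA with its count beside it. Nsd1, Ehmt1, Whsc1 and the shorter Arid1a circle had reads in A1 alone, Setd3 and Smarcc1 in C1 alone, and Btaf1 and the exon 2 circle of Ep400 in B1 and C1.

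Grouped by role, the sums of reads differed between the libraries. Each sum above 0 rests on 1 to 3 circles, so single circles weigh heavily. Btaf1 alone gave 34 of the 50 ATPase reads in B1, and all SET-domain reads of C1 came from Setd3. The SWI/SNF sums came from a different circle in each library. The SET-domain methyltransferases gave 83 reads in A1 (2.01%, 1.61 to 2.49), 0 reads in B1 and 25 in C1 (0.858%, 0.556 to 1.26). The SWI/SNF subunits gave 40 reads in A1 (0.970%, 0.694 to 1.32), 7 in B1 (0.160%, 0.0644 to 0.330) and 26 in C1 (0.893%, 0.584 to 1.31). The Snf2-family ATPases went the other way, with 20 reads in A1 (0.485%, 0.296 to 0.748), 50 in B1 (1.14%, 0.850 to 1.51) and 17 in C1 (0.584%, 0.340 to 0.933), and only the intervals of A1 and B1 were apart. Added together, the remodelers took a like share of each library, 1.45% in A1 (1.11 to 1.87), 1.30% in B1 (0.989 to 1.69) and 1.48% in C1 (1.07 to 1.98), with overlapping intervals. Among them the SWI/SNF subunits were lowest in B1, with an interval below those of A1 and C1, while the ATPases were highest there. The 4 SET-domain hosts were lowest in B1 too, where 0 reads faced 3 circles in A1 and 1 in C1. They are part of that family only: other SET-domain hosts of the table, described below, had 115 reads in B1 (2.63%).

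**Figure D2:**
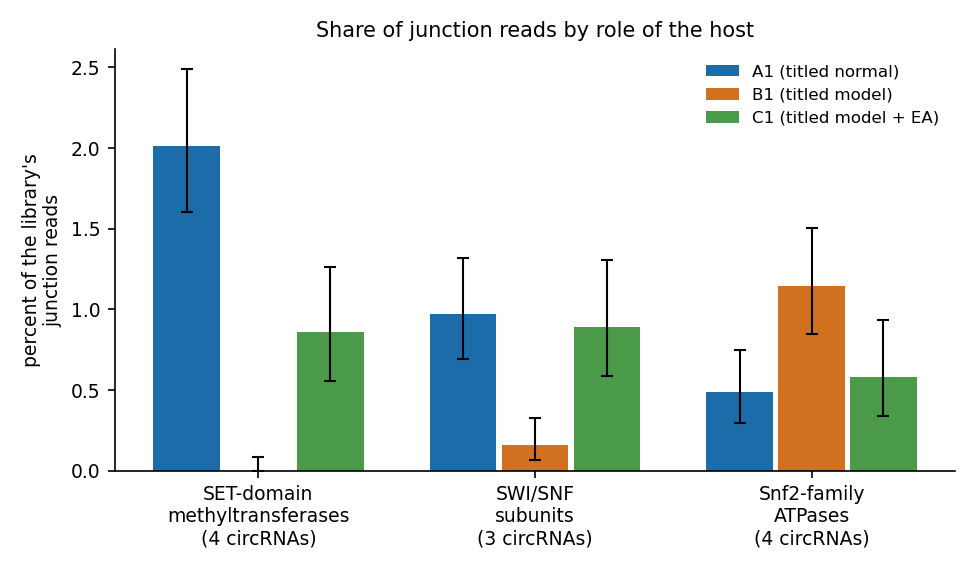
Share of each library's junction reads (y axis, percent) from the circRNAs of each role (x axis), with bars for A1, B1 and C1 and lines for exact 95% intervals of counting error. The SET-domain bars stand at 2.01%, 0 and 0.858%, and the bar of the ATPases is highest in B1 at 1.14%.

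Nsd1 methylates histone H3 in transcribed chromatin, and its human counterpart is mutated in Sotos syndrome. Its circle, at chr13:55213204-55238862 on the plus strand, joined exons 2 to 4 of 23 into 1256 nt. It had 45 reads in A1 and 0 in B1 and in C1, a share of 1.09% of A1 (0.797 to 1.46). It was the most abundant of the 11 in that library, at rank 10 of 157 with 3 circRNAs tied. Against the 3 reads taken for a count of 0, and scaled by the authors' factors, it was at least 18.5-fold lower in B1 and at least 19.1-fold lower in C1 than in A1. Such a fold takes the 45 reads of A1 as exact, and the exact interval of the ratio, which does not, began at 14.4 and 14.9. The fold also depends on the scaling: with TMM factors it was at least 12.7 in B1 and 6.18 in C1. The direction was the same in each case.

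Ehmt1, also called GLP, forms a pair with G9a (Ehmt2) that places repressive methylation on histone H3. Its circle of exons 5 to 10 of 27 (809 nt) had 33 reads in A1, 0 in B1 and 0 in C1, which is 0.800% of A1 (0.551 to 1.12) at rank 46. It was at least 13.6-fold lower in B1 and 14.0-fold lower in C1 (9.30 and 4.53 with TMM), with exact intervals from 10.4 and 10.8. Whsc1, whose annotated symbol is Nsd2 and which is a relative of Nsd1 with the same histone as its substrate, had a circle of exons 3 to 4 of 23 (789 nt) at chr5:33843112-33846267 on the plus strand. It had 5 reads in A1, 0 in B1 and 0 in C1, or 0.121% of A1 (0.0394 to 0.283) at rank 142, near the low end of that library. Against 3 reads its fold was 2.05 lower in B1 and 2.13 lower in C1 with the authors' factors, with exact intervals from 1.13 and 1.17. With TMM factors the folds were 1.41 and 0.686 and the intervals began at 0.775 and 0.377. Without scaling both intervals began at 0.916. They began at 0.971 and 0.647 by total junction reads, and at 0.916 and 0.458 by the median of ratios. A lower level of Whsc1 was thus not detectable at this depth under any scaling but the authors' own. These 3 circles, all of histone methyltransferases, were read in A1 and in no other library. That was also the pattern of 24.0% of all circRNAs in the table, and for Whsc1 it rests on 5 reads.

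Setd3 differs from them in substrate, since it methylates a histidine of actin. Its circle, at chr12:108157754-108165172 on the minus strand, held exons 2 to 6 of 13 (682 nt) and had 0 reads in A1, 0 in B1 and 25 in C1, a share of 0.858% of C1 (0.556 to 1.26). It was at rank 7 of the 320 circRNAs of C1, with 3.57 times the median of 7 reads. It was at least 6.53-fold higher in C1 than in A1 and at least 8.05-fold higher than in B1, with exact intervals from 4.93 and 6.08, and the other scalings gave higher folds, up to 20.2 and 17.1 with TMM.

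Smarcc1, also called BAF155, is a core scaffold subunit of SWI/SNF complexes. Its circle had 0 reads in A1, 0 in B1 and 26 in C1, or 0.893% of C1 (0.584 to 1.31) at rank 5 with 2 circRNAs tied, directly beside Setd3. It was at least 6.80-fold higher in C1 than in A1 and at least 8.37-fold higher than in B1 (21.0 and 17.8 with TMM), with exact intervals from 5.14 and 6.34. With 245 nt it was the shortest of the 11, and its whole sequence is given because it had no identifier in an earlier collection. It is printed from the back-splice acceptor to the donor, with exon 4 (82 nt) and exon 6 (70 nt) in lower case and exon 5 (93 nt) in capitals.
Smarcc1 circle: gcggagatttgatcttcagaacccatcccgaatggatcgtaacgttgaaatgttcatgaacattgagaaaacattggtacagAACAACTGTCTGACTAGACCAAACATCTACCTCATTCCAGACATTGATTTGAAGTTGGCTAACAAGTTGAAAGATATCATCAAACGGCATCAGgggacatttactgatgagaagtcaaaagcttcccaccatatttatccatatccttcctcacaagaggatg

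Arid1a, also called BAF250A, carries an AT-rich DNA-binding domain and defines the canonical BAF form of SWI/SNF. The circle of exons 3 to 4 of 20 (567 nt) had 40 reads in A1, 0 in B1 and 0 in C1, or 0.970% of A1 (0.694 to 1.32) at rank 20. The circle of exons 2 to 4 (780 nt) had 0 reads in A1, 7 in B1 and 0 in C1, or 0.160% of B1 (0.0644 to 0.330) at rank 128. The host was thus read in A1 and B1 through different circles that end at the same donor, as the shared lower-case run of their junctions shows. They differ by exon 2, at chr4:133722839-133723051, which adds 213 nt and 71 residues and keeps the reading frame.
Against 3 reads, the shorter circle was at least 16.4-fold lower in B1 and 17.0-fold lower in C1 than in A1 (11.3 and 5.49 with TMM), with exact intervals from 12.8 and 13.2. The longer one was 1.89-fold higher in B1 than in A1 and 2.41-fold higher than in C1, with exact intervals from 1.17 and 1.49, so its 2-fold call against A1 rested on the 0.1 reads put in place of 0. With TMM its fold over C1 was 1.14 with an interval from 0.702. By total junction reads and by the median of ratios that interval began at 0.960 and 0.721. Equal levels in B1 and C1 were within counting error under each of these scalings.

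Ep400 is the Snf2-family ATPase of the TIP60 complex, which exchanges the histone variant H2A.Z into nucleosomes. It gave 3 circles, the most of any of the 8 hosts. The circle of exons 2 to 3 (1481 nt, chr5:110753804-110756766, minus strand) had 20 reads in A1, 0 in B1 and 0 in C1, or 0.485% of A1 (0.296 to 0.748). The circle of exon 2 alone (1370 nt, chr5:110755397-110756766) had 0 reads in A1, 16 in B1 and 2 in C1, which is 0.366% of B1 and 0.0687% of C1. Here too the host was read in A1 and in B1 through different circles, and these share the end that opens them and differ by 1 exon of 111 nt (37 residues) at chr5:110753804-110753914, which is part of 2 of 6 coding transcripts of Ep400. The longer circle was at least 8.22-fold lower in B1 and 8.50-fold lower in C1 than in A1 (5.64 and 2.75 with TMM), with exact intervals from 6.08 and 6.30. The exon 2 circle was at least 4.33-fold higher in B1 than in A1, with an exact interval from 3.13, and its ratio of B1 to C1 was 8.28 (exact 95% interval 1.95 to 74.2). No fold of it is given between C1 and A1, where 2 reads and 0 are both within the floor.

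The last Ep400 circle, of exons 8 to 10 (270 nt), had 0 reads in A1, 0 in B1 and 5 in C1, or 0.172% of C1 (0.0558 to 0.400). Against 3 reads it was 1.31-fold higher in C1 than in A1 and 1.61-fold higher than in B1, and the exact intervals began at 0.718 and 0.885, so equal levels were within counting error. With TMM factors these intervals began at 2.22 and 1.88. Summed over its circles, Ep400 had 20 reads in A1, 16 in B1 and 7 in C1, or 0.485%, 0.366% (0.209 to 0.594) and 0.240% (0.0967 to 0.494). These 3 intervals overlap, although no Ep400 circle of A1 was found in B1 or C1.

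Pairs of circles from 1 host that share exactly 1 end occurred 57 times in the table, and in 18 of them (31.6%) the circles had no library in common. Among the 8 hosts the Arid1a and the Ep400 pair made up 2 such pairs, and both had none in common. With 2 pairs this is a description only.

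Btaf1, known as Mot1 in yeast, is a Snf2-family ATPase that removes the TATA-binding protein from DNA and acts on that protein rather than on nucleosomes. Its circle of exons 5 to 6 of 38 (301 nt) had 0 reads in A1, 34 in B1 and 10 in C1, or 0.778% of B1 (0.539 to 1.09, rank 66) and 0.343% of C1 (0.165 to 0.630, rank 99). It was the most abundant of the 11 in B1 and the only one with 10 or more reads in more than 1 library. It was at least 9.20-fold higher in B1 than in A1, with an exact interval from 7.08. Against 3 reads it was 2.61-fold higher in C1 than in A1, but the exact interval began at 1.76, below 2-fold (8.09 and 5.44 with TMM). The ratio of B1 to C1 was 3.52 (1.70 to 7.99). That ratio depended on the scaling of the libraries: it was 3.4 without scaling, 2.27 (1.09 to 5.14) by total junction reads, and 1.66 (0.800 to 3.76) by TMM and 1.70 (0.821 to 3.86) by the median of ratios, both below 2-fold and with intervals that include equal levels. For the exon 2 circle of Ep400 the same ratio stayed above 2-fold under these scalings, between 3.90 (0.916 to 34.9) and 8.0, with an interval that includes equal levels under TMM and under the median of ratios.

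The study assayed Btaf1 by qRT-PCR, and its primers were placed on the circle to see what they amplify. The forward primer lay at bases 268 to 285 and the reverse primer at bases 24 to 41 of the 301 nt, counted from the back-splice acceptor, so they point away from each other on the linear mRNA. On the circle they enclose 75 nt, 34 before the junction and 41 after it. The product is shown with the primer sites in capitals.
Btaf1 product across the junction: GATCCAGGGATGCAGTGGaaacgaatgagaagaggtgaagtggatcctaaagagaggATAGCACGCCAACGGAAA
The product holds the whole Btaf1 junction printed above, that of the circle counted in B1 and C1.

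**Figure D3:**
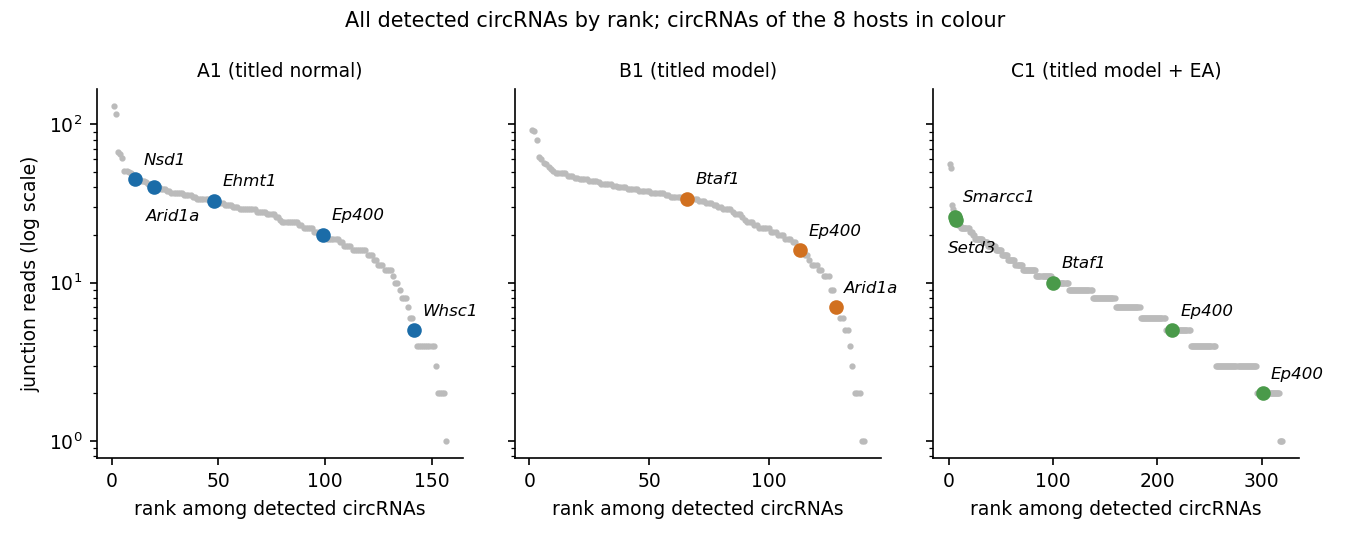
Junction reads (y axis, log scale) of every detected circRNA against its rank (x axis) in A1, B1 and C1, with the circRNAs of the 8 hosts as coloured points and the others in grey. Nsd1 at 45 reads is near the top of A1, Smarcc1 at 26 and Setd3 at 25 are near the top of C1, and Btaf1 at 34 reads is in the middle of B1.

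The 3 pairs of libraries were compared circle by circle at 2-fold, the size that the study's methods use, on reads scaled by the authors' factors with 0.1 reads in place of 0. In B1 against A1 (model against normal by title, model + EA against model by the sheets), 3 of 11 circles were higher (Btaf1, the longer Arid1a circle and the exon 2 circle of Ep400), beside 22.6% of all 563 circRNAs. In the same pair 5 of 11 were lower (Nsd1, Ehmt1, Whsc1, the shorter Arid1a circle and the longer circle of Ep400), beside 25.9% of all. The other 3 had 0 reads in both libraries. As shares, 27.3% of the 11 were higher, near the background, and 45.5% were lower, above it, which with 11 circles from 8 hosts is a description. The circles of Nsd1, Ehmt1 and Whsc1 were all among those lower, that of Whsc1 on 5 reads in A1. Both ATPases had a circle among those higher, and Ep400 also had one among those lower.

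In C1 against B1 (model + EA against model by title, normal against model + EA by the sheets), 3 of 11 were higher (Setd3, Smarcc1 and the Ep400 circle of exons 8 to 10), or 27.3% beside 51.7% of all circRNAs. Another 3 were lower (Btaf1, the longer Arid1a circle and the exon 2 circle of Ep400), again 27.3% beside 23.1% of all, and 5 had 0 reads in both. In C1 against A1 (model + EA against normal by title, normal against model by the sheets), 5 of 11 were higher (Setd3, Smarcc1, Btaf1 and the 2 Ep400 circles with reads in C1), or 45.5% beside 53.6% of all. The same number, 5, were lower (Nsd1, Ehmt1, Whsc1, the shorter Arid1a circle and the longer circle of Ep400), beside 27% of all. The large background of higher calls in C1 goes with its 320 detected circRNAs, most at few reads.

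The median log2 ratio was taken over circles with reads in at least 1 library of the pair, and its size rests largely on the value put for 0. In B1 against A1 it was −6.95 over 8 circles and −4.62 over all 283 circRNAs with 0.1 reads in place of 0, and −2.04 against −0.72 with 3 reads in place of 0. In C1 against B1 it was 1.89 over 6 circles with 0.1 reads and −0.29 with 3 reads, so its sign turned, beside 5.27 and 0.54 over 428 circRNAs. In C1 against A1 it was −1.01 over 10 circles with both values, beside 4.97 and 0.06 over 458. The authors' factors, 1.28 for A1, 1.03 for B1 and 1 for C1, shift all log2 ratios by −0.30 in B1 against A1, −0.05 in C1 against B1 and −0.35 in C1 against A1, and TMM would shift them by 0.24, 1.04 and 1.28.

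The place of the circles in their hosts was set beside that of the table as a whole. Of the 11, 5 (45.5%) began at exon 2, near the share of 177 of the 462 circRNAs of the table with both ends at exon edges (38.3%). The start codon lay inside 5 of 11 (45.5%), those of Nsd1, Whsc1, Setd3 and the Ep400 circles that open at exon 2, beside 94 of 458 (20.5%). These 5 include 7 to 35 nt of 5′ UTR, and the Ep400 circles among them open on the same exon, so they are not independent. The centre of the circle fell in the first 50% of the coding sequence in 11 of 11, beside 347 of 457 (75.9%), at a median of 15.7% of its length beside 28.7%. All 11 thus came from the 5′ side of the coding sequence.

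Where a signature of the catalytic domain was found in a host, it lay outside the circle. The SET signature, an asparagine and a histidine followed after 3 residues by a proline and an asparagine, was found once in the translation of Nsd1 at residue 2021 of 2691, of Ehmt1 at 1191 of 1289 and of Whsc1 at 1142 of 1366. The circles of these hosts span residues 1 to 413, 273 to 542 and 1 to 254. No such signature was found in Setd3, whose circle spans residues 1 to 225 of 594. Its SET domain was therefore not located, and whether the circle takes in part of it was not determined. The ATP-binding signature of Snf2 ATPases was at residue 1290 of 1848 in Btaf1, whose circle spans residues 133 to 233. In Ep400 it was at residue 1078 of 3035, beyond the exon 2 circle (residues 1 to 445) and the circle of exons 8 to 10 (802 to 891), and at 1115 of 2909 in the transcript that holds the longer circle (1 to 482). The Arid1a circles span residues 453 to 641 and 382 to 641 of 2283, and that of Smarcc1 residues 133 to 215 of 1104. In every host with a signature, the circle therefore ended before it.

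**Figure D4:**
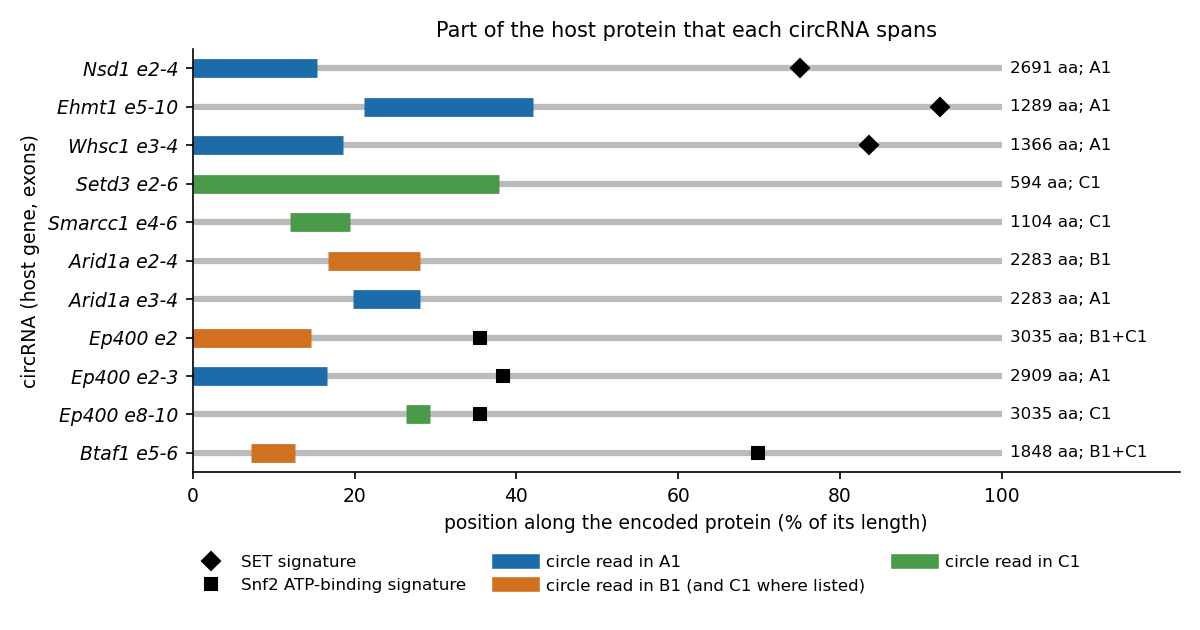
Stretch of the encoded protein (x axis, percent of its length) that each of the 11 circRNAs spans (coloured bars, by the library with most reads), with diamonds at the SET signature and squares at the ATP-binding signature of Snf2 ATPases. Where a host has a mark, the bar ends before it, as for Nsd1, where residues 1 to 413 precede a signature at residue 2021. Setd3, Smarcc1 and Arid1a have no mark.

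The circles had a median length of 780 nt, beside 375.5 nt in the table, while the median number of exons was 3 in both. They ranged from 245 nt (Smarcc1) to 1481 nt (Ep400), and 4 of 11 had a length that is a multiple of 3 (36.4%, beside 31.2%). Only the exon 2 circle of Ep400 was a single exon, as were 37 of 462 in the table. The introns next to the circles had medians of 13546 nt upstream (1839 to 29417) and 8342 nt downstream (580 to 38589), beside 8806 and 5955 nt in the table, and the widest was the intron after the Setd3 circle. The GC content had a median of 45.6% in both sets. It ran from 38.9% in the Ep400 circle of exons 8 to 10 to 58.6% in the shorter Arid1a circle. Circles of 1 host share exons and introns, so these medians rest on 8 hosts rather than on 11 independent genes.

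**Figure D5:**
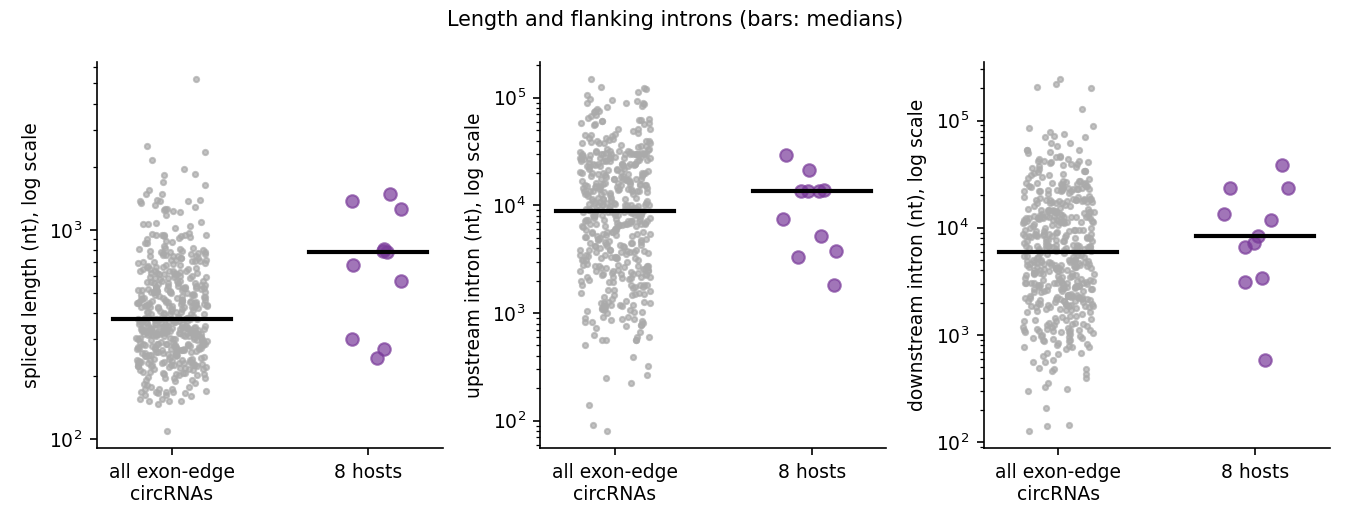
Spliced length, upstream intron and downstream intron (y axes, nt, log scale) of all 462 exon-edge circRNAs in grey and of the 11 circRNAs of the 8 hosts in purple, with black bars at the medians. The medians of length are 375.5 and 780 nt, and both clouds overlap widely in all 3 panels.

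Other genes of the same families set these hosts in context. Of a list of 58 SET-domain methyltransferases, which is not reported in full, 9 hosted a circRNA, and the 5 beyond those described were Ezh1, Ezh2, Kmt2a, Kmt2e and Ash1l, with 9 circles. Ezh2, the catalytic subunit of the polycomb complex PRC2, gave 4 of them, with 0 reads in A1, 91 in B1 and 56 in C1 for the most abundant and 5 to 8 reads in C1 alone for the others. Ezh1, its paralog in the same complex, had 24 reads in B1 alone, and the circles of Kmt2a, Kmt2e and Ash1l had 3 to 13 in C1 alone. Among these 9 circles, 7 were higher and 1 lower in C1 against B1. These 5 hosts had 115 reads in B1 (2.63%) and 103 in C1 (3.54%), so the 0 reads of B1 among Nsd1, Ehmt1, Whsc1 and Setd3 did not extend to the SET-domain hosts as a whole.

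Other remodelers were nearly absent from the table. Of 32 SWI/SNF subunits, only Arid1a and Smarcc1 hosted a circRNA. Of 30 subunits of the INO80, SRCAP and TIP60 complexes only Ep400 did. Of 27 other Snf2-family ATPases, Btaf1 and Chd2 did, and the circle of Chd2 had 3 reads in C1 and 0 in A1 and B1. At these depths, genes without a circle are not shown to lack one, since the floor is 3 reads in each library.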

How the data were processed

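Exosomal RNA of mouse plasma was depleted of rRNA and sequenced as stranded paired-end libraries, 1 per group. Reads were trimmed (cutadapt 1.9.3) and aligned to mm10 (STAR 2.5.1b) by the authors, who then ran DCC to find back-splice junctions and circBase to name them. For each circRNA and library the deposited table holds the count of junction reads and its normalized log2. The deposited log2 values were checked: each is that of the count multiplied by a constant of its library (1.28, 1.03 and 1 for A1, B1 and C1), 0.1 reads standing in for 0. The origin of these constants is not stated in the sources used here. The libraries had totals of 4125, 4372 and 2913 junction reads.

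With 1 library per group, no spread between samples could be estimated. Circles were called at 2-fold on the scaled counts. Shares and ratios carry exact 95% Clopper-Pearson intervals, and folds against a count of 0 are taken against 3 reads in that library, the count of the other library being treated as free of error. PCR duplicates were not told apart by molecular identifiers, so intervals and bounds cover counting error only. Exons, reading frames and sequences were taken from GENCODE M21 on GRCm38, from a coding transcript that holds both ends of the circle as exon edges. Where several did, 1 whose summed exons equal the authors' predicted length was preferred, and then 1 in which the circle is internal. A wider form of the Snf2 signature was used after a narrower form had missed Ep400. Splice dinucleotides and complementary intron sequence were not analysed here. Alternatives changed the value for 0, the scaling (none, total reads, TMM of edgeR 4.0.16, median of ratios), the minimum reads (10 or 20), the fold (4), the unit (host) and the group names. All circles of the 8 hosts are named, with hosts of 4 lists of related genes. The hosts and the lists were chosen with earlier results of these data known. The list of SET-domain genes is incomplete, since a withheld item is not reported here, so its counts against A1 are left out. Python 3.11.15 with pandas 2.3.3 and scipy 1.17.1 was used.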

Additional observations from a re-analysis of the deposited data

How the results depend on the processing

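No paired analysis was possible because each group had 1 library and the result comes from no test. Of 72 counts of called circles among the 8 hosts recomputed under 12 alternatives, 59 stayed within 1.5 times. No scaling moved such a count beyond that, but the scalings could hardly do so. Most calls set reads against 0.1 reads in place of 0, which scaling factors of this size cannot bring below 2-fold. Only in C1 against B1 did any of these circles, 2 of them, have reads in both libraries. There the circles called lower went from 3 to 2 by TMM and by the median of ratios, as Btaf1 fell below 2-fold. Group names are those of the titles here. In model against normal, circles of the hosts called higher went from 3 to 1 with at least 20 reads, to 1 per host and to 5 with the group names of the sheets, and all circRNAs called lower from 146 to 92 with at least 20 reads and 302 with those names. In model + EA against model, circles of the hosts called lower went from 3 to 1 with at least 20 reads, to 0 with the exact interval beyond 2-fold and to 5 with the names of the sheets. All circRNAs called higher there went from 291 to 168 with 3 reads in place of 0, 102 with at least 10 reads, 21 with at least 20, 101 with the exact interval and 127 with the names of the sheets. In model + EA against normal, circles of the hosts called higher went from 5 to 3 with 3 reads in place of 0, with at least 10 reads, per host and with the names of the sheets, and to 2 with at least 20 reads and with the exact interval. Those called lower went from 5 to 3 with the names of the sheets. All circRNAs called higher went from 302 to 148, 104, 22, 73 and 130 with 3 reads, at least 10 reads, at least 20 reads, the exact interval and the names of the sheets, and those called lower from 152 to 99 with at least 20 reads and 291 with those names. A minimum of reads leaves fewer circRNAs to call, and the names of the sheets exchange the library pairs. The share of junction reads from the hosts fell to 2.38%, 0.526% and 1.44% in A1, B1 and C1 without the most abundant circle. Depth limits the results most in C1, where 24 circRNAs had at least 20 reads, against 100 in A1 and 106 in B1.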
